A study of Mus musculus with 9 samples.

Results

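The malate-aspartate shuttle and the malic enzymes were examined at the level of RNA in mouse calvarial cells before and during osteoblast differentiation. The group comprised the 10 genes Mdh1, Mdh2, Got1, Got2, Slc25a11, Slc25a12, Slc25a13, Me1, Me2 and Me3, which were read by their symbols out of the 40548 genes of the deposited tables. All 10 genes were found, and all had reads in each of the 9 libraries. The genes were taken for their known place in the shuttle or in malate metabolism, with earlier results of these data known.

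The cells were primary cells from the calvaria, the flat bones of the skull, of C57BL/6 mice at postnatal day 2 to 3. They were taken at day 0, when the culture was confluent and undifferentiated, or after 4 or 7 days in mineralization medium, and the sample records name no transgene or drug, while the methods describe wild-type and ColI-GFP pups of this strain. Each stage had 3 libraries, prepared from total RNA after removal of ribosomal RNA. Mineralized cells were released with collagenase I before trypsin and non-mineralized cells with trypsin alone, so stage and release cannot be told apart.

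The shuttle carries reducing equivalents across the inner mitochondrial membrane, which NADH itself does not cross. In the cytosol, malate dehydrogenase uses NADH to turn oxaloacetate into malate, and a carrier exchanges that malate for 2-oxoglutarate. In the matrix, malate is oxidized back to oxaloacetate with the formation of NADH, an aspartate aminotransferase converts oxaloacetate to aspartate, and a second carrier exports the aspartate in exchange for glutamate. The cycle returns NAD+ to the cytosol, where glycolysis consumes it. Malic enzymes interconvert malate and pyruvate and so connect the shuttle with pyruvate metabolism. The cytosolic form ME1 and the mitochondrial form ME3 use NADP+, whereas mitochondrial ME2 can use NAD+.

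Stage was checked against marker genes. Over all genes tested with limma, 12.6% passed as higher at day 7 than at day 0 and 18.6% as lower. Of 8 osteoblast markers, 7 were higher at day 7 than at day 0 in limma, and the exception was Runx2, the early transcription factor of the lineage. Of 6 proliferation genes, 4 were lower. All 5 macrophage markers were also higher at day 7, with summed CPM (the reads of a gene scaled to a library of 1000000 reads on genes) of 58.1 to 101 at day 0, 113 to 122 at day 4 and 111 to 145 at day 7. Of 5 muscle markers, Acta1 and Des were higher, with a summed CPM of 8.05 to 13.3 at day 7, whereas Myh3, Ckm and Myog had at most 4 reads in any library. Bglap, Dmp1, Ptprc and Des entered the test only through their day 7 level. Adipocyte and endothelial markers were below the level tested, and their part and that of the macrophage and muscle RNA in the results was not tested. In bulk RNA, fewer cells of one type and less RNA per cell cannot be told apart. Reads on genes were 7741204 to 14013219 per library at day 0, 32820610 to 37306090 at day 4 and 10675858 to 15622755 at day 7. Day 0 replicate 3 was the shallowest library, and Gm42418, a gene that overlaps ribosomal RNA sequence, took 12.0% of its reads. It gave the lowest day 0 CPM for 9 of the 10 genes, and day 7 replicate 2, in which Gm42418 took 8.12%, gave the lowest day 7 CPM for 9 of the 10. The same share over all genes was not counted. In day 7 replicate 3 another gene, Plekhh2, took 7.95% of the reads. What these single genes did to the levels of the others was not tested.

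Me2 was the one gene of the group that rose in the test. RPKM is the CPM of a gene divided by the kilobases of its gene model. The mean RPKM of Me2 was 18.8 ± 3.05 (SD, n = 3) at day 0, then 35.6 ± 0.861 at day 4, and reached 48.7 ± 5.56 at day 7. Among the other 9 genes, Me3, which was barely detected and entered the test only through day 0, was lower at day 7. The other 8 did not pass the test. The ratios of mitochondrial to cytosolic isoforms, and of the aspartate-glutamate carriers, did not overlap between the libraries of day 0 and day 7, but for malate dehydrogenase the interval of the difference included 0.

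**Figure D1:**
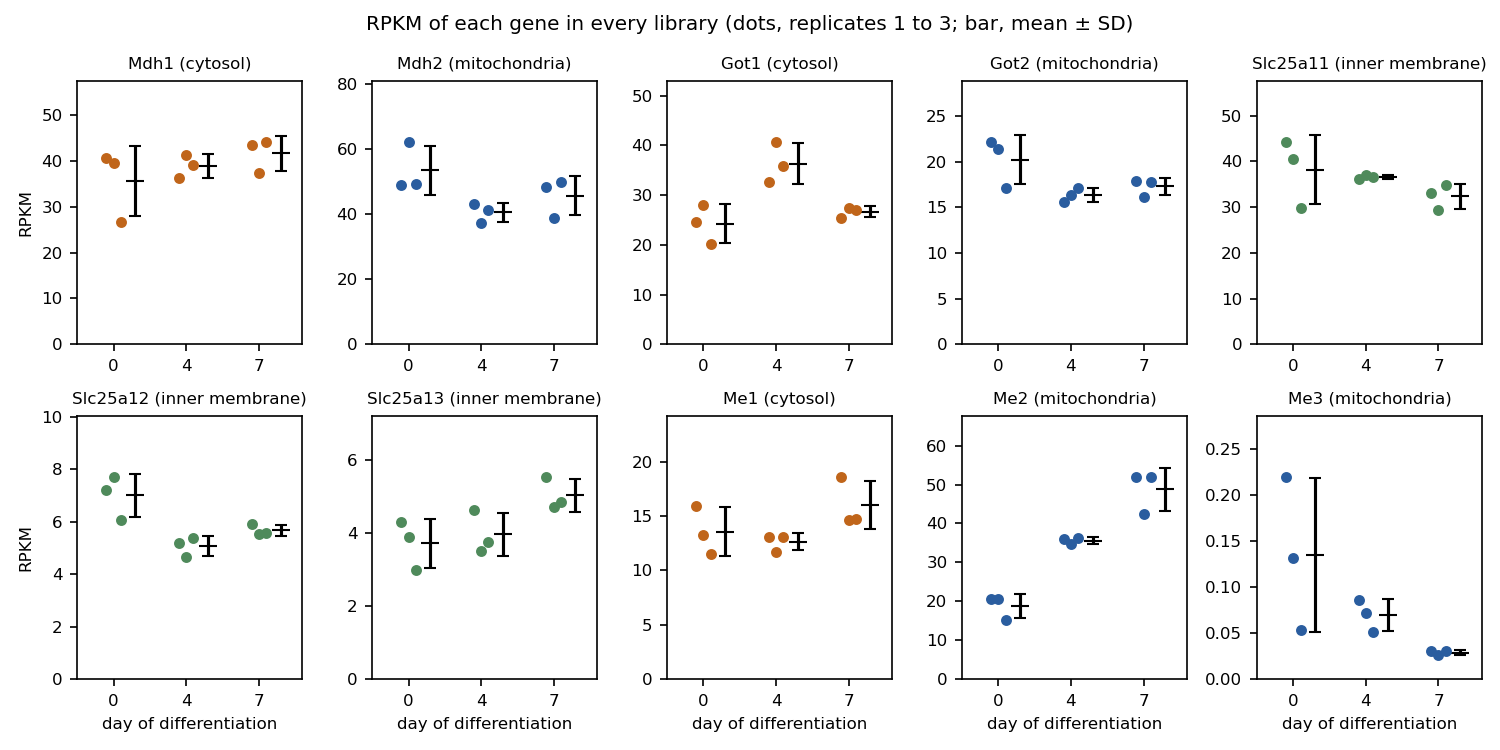
RPKM of each of the 10 genes (vertical axis, a scale of its own in each panel, from 0) at day 0, 4 and 7 (horizontal axis). Dots are the 3 libraries of a stage, replicates 1 to 3 from left to right, and bars are mean ± SD. Me2 is the one gene whose libraries are higher at each later stage without overlap.

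Of the 10 genes, 2 passed the test of day 7 against day 0 (limma on log2(CPM + 0.5), Benjamini-Hochberg adjusted p below 0.05 over 12712 genes), Me2 as higher and Me3 as lower. Me3 entered the test only through its day 0 level, so its lower level at day 7 was built into these counts. Across all genes tested, 31.2% passed, 12.6% as higher and 18.6% as lower, so the share among the 10 genes was not above that of the background. The median log2 fold change of the 10 genes was −0.03, or 0.15 without Me3, compared with −0.11 over all genes tested. Between day 0 and day 7, the libraries of 2 genes did not overlap and were higher at day 7 (Slc25a13 and Me2), and those of 2 were lower (Slc25a12 and Me3), whereas 42.3% of all genes did not overlap (16.9% higher and 25.4% lower). With median-of-ratios scaling, 8 of the 10 did not overlap, 5 higher (Mdh1, Got1 and Me1 in addition) and 3 lower (Got2 in addition), against 54.2% of all genes, 27.5% higher and 26.7% lower. Between day 0 and day 4, Got1 and Me2 were above without overlap, and Mdh2, Got2 and Slc25a12 were below, against a background of 43.3% (21.1% above and 22.2% below). Between day 4 and day 7, 4 genes were above at day 7 without overlap (Slc25a12, Slc25a13, Me1 and Me2) and 3 below (Got1, Slc25a11 and Me3), against 38.5% (13.8% above and 24.6% below). Day 4 was deposited in a table of its own, had more reads per library than the other stages and entered no test. Differences of day 4 from day 0 or day 7 cannot be told apart from those of its separate table and depth.

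At day 0, the order of the levels, compared per length, was the same in all 3 libraries. Mdh2 was highest, with a mean of 53.3 RPKM and no overlap with Slc25a11, which came next with 38.2. Slc25a11, Mdh1, Got1, Got2, Me2 and Me1 followed each other with overlapping ranges. Slc25a12, Slc25a13 and Me3 came last, each apart from the next. At day 4, Mdh2, Mdh1, Slc25a11, Got1 and Me2 had means of 35.6 to 40.5 RPKM and overlapped from one to the next. At day 7, Me2 stood first with 48.7 RPKM, ahead of Mdh2 in all 3 libraries, but the ranges of Me2 and Mdh2 overlapped. That first place depended on the length used for scaling. The length behind the deposited RPKM was 2455 bp for Me2 and 2089 bp for Mdh2, whereas the longest coding transcript of GENCODE M21 has 2638 bp and 1456 bp. Per kilobase of coding transcript, Mdh2 and Mdh1 were both above Me2 in each day 7 library, with ranges of Mdh1 and Me2 that overlapped.

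The cytosolic malate dehydrogenase gene Mdh1 (chr11:21556787-21572367, minus strand, GRCm38) had 40.6, 39.6 and 26.8 RPKM in replicates 1 to 3 at day 0, 36.3, 41.4 and 39.1 at day 4, and 43.5, 37.3 and 44.1 at day 7. The stages overlapped, and the lowest value was that of day 0 replicate 3. Day 7 was 1.18-fold day 0 (log2 fold change 0.24, SE 0.16, adjusted p = 0.265 in limma). With median-of-ratios scaling, which moved the median of all genes from −0.11 to −0.01, Mdh1 passed as higher, with a log2 fold change of 0.35. Without day 0 replicate 3, which moved that median to −0.23, the log2 fold change of Mdh1 was 0.05.

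Its mitochondrial counterpart Mdh2 (chr5:135778480-135790398, plus strand) encodes the enzyme of the matrix and is also part of the TCA cycle. Its values were 48.9, 62.0 and 49.1 RPKM at day 0, 43.1, 37.2 and 41.1 at day 4, and 48.2, 38.8 and 49.8 at day 7. All day 4 libraries were below all day 0 libraries, while day 7 overlapped both. The log2 fold change at day 7 was −0.22 (SE 0.16, adjusted p = 0.296 in limma), and Mdh2 did not pass with any alternative that was run.

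The cytosolic aspartate aminotransferase gene Got1 (chr19:43499752-43524605, minus strand) had its highest level at day 4. It showed 24.6, 28.0 and 20.2 RPKM at day 0, 32.6, 40.6 and 35.8 at day 4, and 25.4, 27.4 and 27.1 at day 7. Every day 4 library was above every library of the other stages, while day 0 and day 7 overlapped. The log2 fold change of day 7 against day 0 was 0.15 (SE 0.16, adjusted p = 0.524 in limma), and the value of 0.26 under median-of-ratios scaling passed as higher, whereas without day 0 replicate 3 it was 0.02.

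The mitochondrial isoform Got2 (chr8:95864134-95888547, minus strand) had 22.2, 21.4 and 17.1 RPKM at day 0, 15.6, 16.4 and 17.1 at day 4, and 17.9, 16.2 and 17.8 at day 7. The mean of Got2 was thus lowest at the stage at which that of Got1 was highest, although the highest day 4 library was only just below day 0 replicate 3. Day 0 replicate 3 lay within the range of the day 7 libraries, and the log2 fold change at day 7 was −0.22 (SE 0.16, adjusted p = 0.326 in limma). Without that library it was −0.33 and passed. Of the 50-base words of the longest coding transcript of Got2, 47.2% also occur in transcripts of other genes, mostly Gm10874, which had at most 5 reads in any library. Counting took uniquely aligned reads, so the level of Got2 may be too low by the reads left out.

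Promoter sequences are shown for Got1, Slc25a13 and Me1, members of the compared pairs, each of which held a searched motif. Windows of 300 bases around the RefSeq transcript start (GRCm38.p6), most of them upstream, were available for 9 of the 10 genes, in 10 windows. A set of 4 short motifs was searched on both strands: the ATF4 and C/EBP element TGATGNAA, the hypoxia response core ACGTG, the antioxidant response element TGACNNNGC and the estrogen-related receptor element AAGGTCA. The following lines give the 5′ to 3′ sequence on the strand of the gene, with the matched bases in capitals. They lie at chr19:43524586-43524765, chr6:6217154-6217333 and chr9:86695905-86695934, all on the minus strand.
Got1: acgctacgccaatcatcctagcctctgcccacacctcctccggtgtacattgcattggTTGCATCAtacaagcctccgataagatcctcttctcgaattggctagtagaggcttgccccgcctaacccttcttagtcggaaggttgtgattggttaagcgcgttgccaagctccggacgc
Slc25a13: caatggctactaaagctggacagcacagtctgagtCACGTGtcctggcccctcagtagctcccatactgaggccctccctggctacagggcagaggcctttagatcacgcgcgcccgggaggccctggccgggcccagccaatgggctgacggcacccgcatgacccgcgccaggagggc
Me1: ggccgatgccgccgTGACTCAGCgcttctc

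The capitals in Got1 are the reverse complement of the ATF4 and C/EBP element, which was present in 2 of the 10 windows (Got1 and Me3) and in 3.97% of the 32851 windows of the table. Got1 also held the estrogen-related receptor element, further upstream than the stretch shown, as did 4.72% of all windows. The capitals in Slc25a13 are a palindrome that holds the hypoxia core on both strands and is also the sequence known as an E-box. That core occurred in 3 of the 10 windows (Slc25a13, Mdh1 and the second window of Me1) and in 19.6% of all windows. In Me1 the capitals begin 6 bases before the RefSeq start and match the antioxidant response element, and they contain the AP-1 sequence as well. The GENCODE start of Me1 lies further upstream, so by that annotation the stretch shown is inside the gene. The antioxidant response element was also found in Mdh1 and in 12.4% of all windows. These matches describe letters in the windows and were not tested for use by a factor.

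The carrier Slc25a11 (chr11:70644196-70647479, minus strand), which exchanges malate for 2-oxoglutarate, had 44.2, 40.5 and 29.8 RPKM at day 0, 36.1, 37.0 and 36.6 at day 4, and 33.0, 29.4 and 34.8 at day 7. All day 7 libraries were below all day 4 libraries, but day 0 replicate 3 lay within the range of day 7. The log2 fold change of day 7 against day 0 was −0.22 (SE 0.16, adjusted p = 0.324 in limma). Without day 0 replicate 3 it was −0.39 and passed as lower.

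The aspartate-glutamate carriers are calcium-regulated proteins known as aralar (Slc25a12) and citrin (Slc25a13). Slc25a12 (chr2:71271063-71367749, minus strand) had 7.22, 7.71 and 6.08 RPKM at day 0, 5.18, 4.65 and 5.37 at day 4, and 5.91, 5.52 and 5.58 at day 7. Every day 0 library was above every later library. The log2 fold change at day 7 was −0.29 (SE 0.16, adjusted p = 0.163 in limma), and it was −0.39 and passed without day 0 replicate 3.

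Slc25a13 (chr6:6041218-6217173, minus strand) had 4.29, 3.88 and 2.98 RPKM at day 0, 4.62, 3.51 and 3.76 at day 4, and 5.53, 4.71 and 4.84 at day 7. Here every day 7 library was above every earlier library, while day 0 and day 4 overlapped. Its log2 fold change of 0.43 (SE 0.19, adjusted p = 0.0746 in limma) did not pass, whereas the value of 0.54 under median-of-ratios scaling did, as higher. Without day 0 replicate 3 it was 0.29 (adjusted p = 0.0987).

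The cytosolic malic enzyme gene Me1 (chr9:86581371-86695953, minus strand) had 15.9, 13.2 and 11.5 RPKM at day 0, 13.1, 11.7 and 13.1 at day 4, and 18.6, 14.7 and 14.8 at day 7. Day 0 overlapped both later stages, whereas all day 7 libraries were above all day 4 libraries. The log2 fold change at day 7 was 0.24 (SE 0.16, adjusted p = 0.273 in limma), and 0.35 with a pass in the median-of-ratios scaling, whereas it was 0.13 without day 0 replicate 3 and also without day 7 replicate 1. Of the 50-base words of its longest coding transcript, 32.8% occur in transcripts of other genes, mostly Gm7049. As for Got2, the level of Me1 may therefore be too low by the reads left out.

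Me2 (chr18:73769903-73815449, minus strand) had 20.6, 20.6 and 15.3 RPKM at day 0, 35.9, 34.6 and 36.2 at day 4, and 52.0, 42.3 and 52.0 at day 7. These values rest on 291 to 708 reads per library at day 0, 2894 to 3209 at day 4 and 1110 to 1994 at day 7. The lowest day 4 library was above the highest of day 0, and the lowest day 7 library was above the highest of day 4. Me2 rose 2.58-fold from day 0 to day 7 (log2 fold change 1.37, SE 0.16, 95% interval 1.05 to 1.69, adjusted p = 1.22e-09 in limma). Its log2 fold change exceeded that of 96.2% of the genes tested. The exact permutation test gave p = 0.1 (two-sided), the smallest value that 3 libraries against 3 allow.

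Me3 (chr7:89632392-89854359, plus strand), the other mitochondrial isoform, had 45, 23 and 6 reads at day 0, 41, 39 and 27 at day 4, and 6, 4 and 7 at day 7. Its mean RPKM was 0.135 ± 0.0833, 0.0693 ± 0.0172 and 0.0288 ± 0.0027 (SD, n = 3 at each stage). The day 0 libraries spread widely, and all day 7 libraries were below all others. Me3 fell by 1.29 on the log2(CPM + 0.5) scale (SE 0.31, adjusted p = 0.000839 in limma). The gene entered the test only through its day 0 level, with a mean CPM of 1.97 at day 0 and 0.42 at day 7, so a difference of this direction was built into its presence among the genes tested. The gene model behind its RPKM was 14624 bp long, compared with 4485 bp for its longest coding transcript, and per coding transcript Me3 still stayed below 1 CPM per kilobase in every library.

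**Figure D2:**
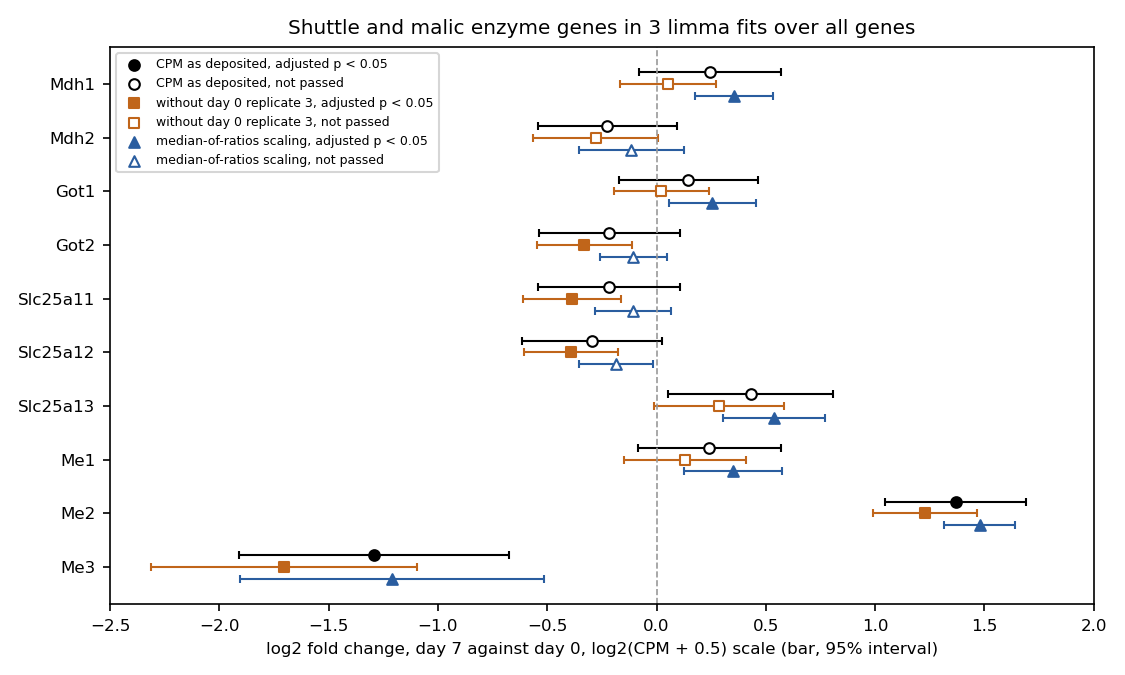
Log2 fold change of day 7 against day 0 for the 10 genes (horizontal axis, log2(CPM + 0.5) scale) with 95% intervals in 3 limma fits over all genes, with the CPM as deposited (circles), without day 0 replicate 3 (squares) and with median-of-ratios scaling (triangles). Filled symbols have an adjusted p below 0.05. Me2 lies between 1.23 and 1.48 and Me3 between −1.70 and −1.21, while which of the other 8 genes pass differs between the fits.

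How many of these genes passed therefore depended on the scaling and on day 0 replicate 3, whereas no gene changed sign in the 18 alternatives run (17 for Me3). With median-of-ratios scaling 6 passed, Mdh1, Got1, Slc25a13, Me1 and Me2 as higher and Me3 as lower, against a background of 22.4% higher and 20.5% lower. Without day 0 replicate 3 there were 5, Me2 as higher and Got2, Slc25a11, Slc25a12 and Me3 as lower, against 12.6% and 36.9%. With voomWithQualityWeights, which combines TMM scaling, limma's voom model of the recovered reads and library weights, there were 6, Mdh1, Slc25a13, Me1 and Me2 as higher and Slc25a12 and Me3 as lower, against 24.8% and 23.4%. Without day 0 replicate 3 the log2 fold changes of the cytosolic enzymes were close to 0 (0.05 for Mdh1, 0.02 for Got1 and 0.13 for Me1, with adjusted p of 0.69, 0.875 and 0.411 in limma). In that fit the median over all genes tested was −0.23, compared with −0.11 with that library kept.

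The ratio of a mitochondrial to a cytosolic isoform within a library does not depend on how that library is scaled. For malate dehydrogenase, Mdh2/Mdh1 was 1.20, 1.57 and 1.84 in the day 0 libraries, 1.19, 0.897 and 1.05 at day 4, and 1.11, 1.04 and 1.13 at day 7. The geometric mean was 1.51 at day 0 and 1.09 at day 7, a difference of −0.47 in the log2 ratio, with SD of 0.31 and 0.06. The mitochondrial isoform thus had the higher level in every library of both stages, by a smaller margin at day 7, and in 2 of 3 libraries at day 4. Per kilobase of coding transcript Mdh2 was higher in all 9 libraries, with ratios of 1.41, 1.06 and 1.25 at day 4.

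For aspartate aminotransferase, Got2/Got1 was 0.901, 0.763 and 0.849 at day 0, 0.478, 0.402 and 0.478 at day 4, and 0.704, 0.590 and 0.657 at day 7. By the uniquely aligned reads that were counted, the cytosolic isoform was the higher one in all 9 libraries. The level of Got2 may be too low by the reads left out, as stated for that gene. Whether Got1 would stay the higher one with those reads was not tested. The 3 stages did not overlap, and the ratio was lowest at day 4, with geometric means of 0.836, 0.451 and 0.649. The log2 ratio differed by −0.37 between day 7 and day 0 (SD 0.13 and 0.12).

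For malic enzyme the direction was the opposite. Me2/Me1 was 1.29, 1.56 and 1.33 at day 0, 2.74, 2.95 and 2.77 at day 4, and 2.79, 2.89 and 3.52 at day 7. Day 4 and day 7 overlapped, and both were above day 0. Geometric means were 1.39, 2.82 and 3.05, so the ratio at day 7 was 2.20 times that at day 0, a difference of 1.14 in the log2 ratio (SD 0.18 and 0.15).

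Between the aspartate-glutamate carriers, Slc25a12/Slc25a13 was 1.68, 1.99 and 2.04 at day 0, 1.12, 1.33 and 1.43 at day 4, and 1.07, 1.17 and 1.15 at day 7. Slc25a12 was above Slc25a13 in all 9 libraries, and the ratio was nearest to equality at day 7. The log2 ratio differed by −0.75 between day 7 and day 0 (SD 0.07 and 0.15). Each of these 4 differences had an exact permutation p of 0.1 (two-sided), which is the smallest possible with 3 libraries against 3 and stayed 0.1 after Benjamini-Hochberg adjustment over the 4 pairs. Intervals from the pooled spread of the 6 libraries, which assume a normal spread, were −0.97 to 0.03 for Mdh2/Mdh1, −0.65 to −0.08 for Got2/Got1, 0.76 to 1.51 for Me2/Me1 and −1.02 to −0.48 for Slc25a12/Slc25a13 (95%, log2 ratio). The interval of Mdh2/Mdh1 thus included 0.

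**Figure D3:**
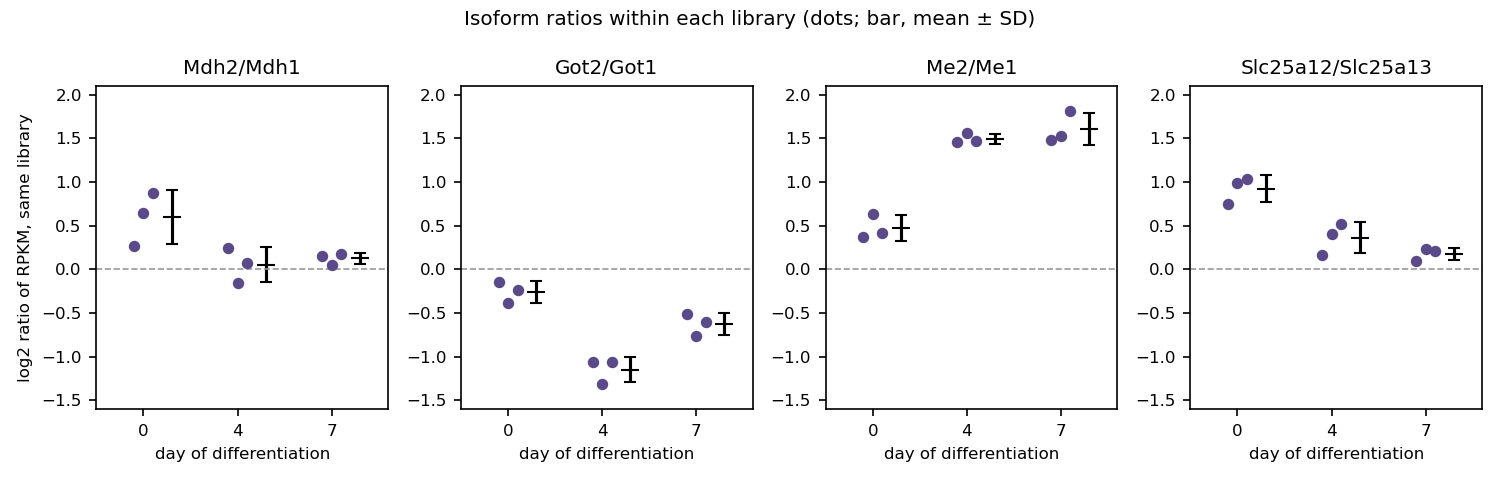
Log2 ratio of the RPKM of 2 genes of the same library (vertical axis) at day 0, 4 and 7 (horizontal axis) for Mdh2/Mdh1, Got2/Got1, Me2/Me1 and Slc25a12/Slc25a13. Dots are libraries, bars are mean ± SD, and the dashed line marks equal levels. Me2/Me1 is higher at day 7 than at day 0, and the other ratios are lower.

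As shares of the summed RPKM of the 3 malic enzymes, Me2 made up 57.9% ± 2.46 (SD, n = 3) before differentiation, 73.7% ± 0.768 by day 4 and 75.2% ± 2.27 by day 7. Me1 made up 41.7% ± 2.42, 26.1% ± 0.772 and 24.7% ± 2.28, and Me3 at most 0.598% in any library, or 1.86% per kilobase of coding transcript. Per kilobase of the longest coding transcript the share of Me2 was 51.8%, 68.9% and 70.7%, with Me2/Me1 at 1.10, 2.25 and 2.43. Me2 was above Me1 in all 9 libraries with either length, by a narrow margin at day 0 with the coding transcript. The level of Me1 may be too low by the reads left out, and whether this order would stay with them was not tested. Among the aspartate-glutamate carriers, Slc25a12 made up 65.4% ± 2.41, 56.2% ± 3.07 and 53.1% ± 1.24 of the summed RPKM.

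**Figure D4:**
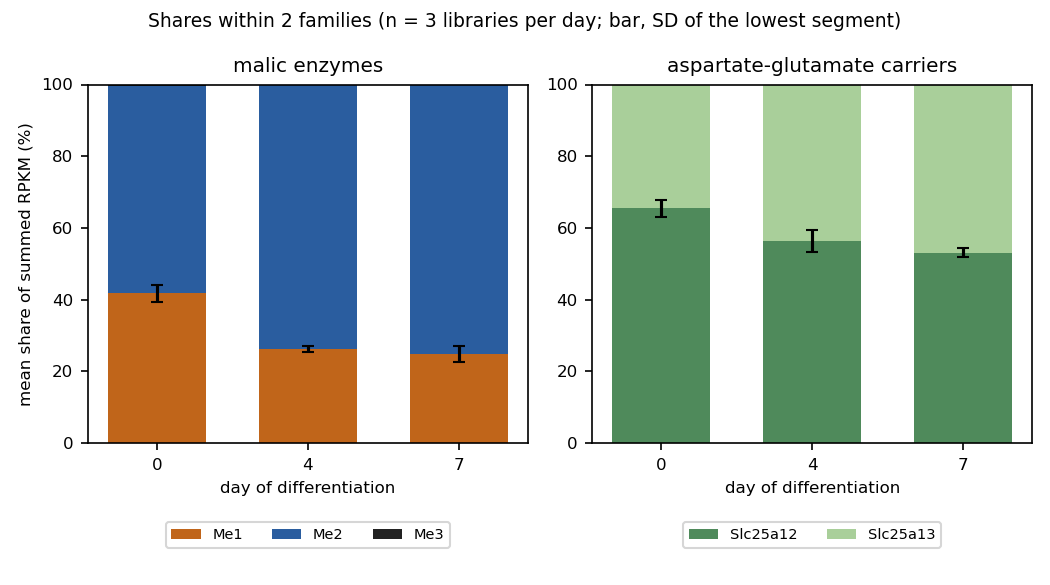
Mean share of each gene in the summed RPKM (vertical axis, percent) of the malic enzymes and of the aspartate-glutamate carriers at day 0, 4 and 7 (horizontal axis), with the SD of the lowest segment over 3 libraries. Me3 is too small to be seen, and the Me1 segment is 41.7%, 26.1% and 24.7%.

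The rest of the pathway was described with lists of neighbouring enzymes and carriers. Over all genes tested 31.2% passed, 12.6% as higher and 18.6% as lower, and the counts below stand beside these shares. The lists were not tested as sets, and their genes are given for the CPM as deposited only. The glycerol phosphate shuttle also returns NAD+ to the cytosol, by way of a cytosolic dehydrogenase and the mitochondrial dehydrogenase encoded by Gpd2. Both of its tested genes were lower at day 7. Gpd2 fell by 0.87 on the log2 scale (adjusted p = 1.86e-05 in limma), from 8.97, 9.65 and 8.32 RPKM at day 0 to 4.93, 4.89 and 4.77 at day 7, and Gpd1l fell by 0.50 (adjusted p = 0.0316). Gpd1 had 5 to 29 reads per library and was not tested.

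Of 6 tested genes of pyruvate, lactate and oxaloacetate metabolism, 1 was higher, 2 were lower and 3 did not pass. Ldha, whose product reduces pyruvate to lactate and returns NAD+ to the cytosol, rose by 1.15 (adjusted p = 3.04e-07 in limma). Pcx, which encodes the pyruvate carboxylase that makes oxaloacetate in mitochondria, had the largest fall, by 1.39 (adjusted p = 4.53e-10 in limma). It had 22.1, 22.9 and 19.6 RPKM at day 0, 9.27, 9.17 and 9.31 at day 4, and 8.84, 7.52 and 8.01 at day 7. Pcx was thus at about the level of Me2 at day 0 and far below it at day 7, where their means were 8.12 and 48.7 RPKM. Pck1, which encodes the cytosolic phosphoenolpyruvate carboxykinase, had at most 2 reads and was not tested.

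Of 5 genes that handle malate and citrate, 2 were lower and 3 did not pass, among them the fumarase gene Fh1, whose product forms malate (log2 fold change −0.16, adjusted p = 0.469 in limma). Acly, which encodes the cytosolic enzyme that splits citrate into oxaloacetate and acetyl-CoA, fell by 0.97 (adjusted p = 1.55e-06 in limma), from a mean of 59.7 to 30.4 RPKM. Of 14 tested genes of aspartate and glutamate metabolism, 3 were higher, 3 lower and 8 did not pass. The glutamate transporter gene Slc1a1 had the largest difference among the higher genes, 1.74, with a mean of 0.0321 RPKM at day 0 and 0.305 at day 7. It entered the test only through day 7, with a mean CPM of 0.198 at day 0 and 1.88 at day 7, so a difference of this direction was built in. Ass1, which encodes the argininosuccinate synthase that consumes aspartate, had the largest fall, by 1.14, from a mean of 13.4 to 5.94 RPKM. Slc1a2 and the glutamate carrier gene Slc25a18 were not tested.

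Of 3 other tested carriers, 2 were higher. The largest rise was 0.92 for Ucp2, at a mean of 0.507 RPKM at day 7. Slc25a10, which exchanges malate or succinate for phosphate, rose by 0.58 (adjusted p = 0.00815 in limma), from 6.15, 5.93 and 4.90 RPKM at day 0 to 9.51, 7.26 and 8.79 at day 7. The citrate carrier gene Slc25a1 did not pass (log2 fold change 0.35, adjusted p = 0.0773), and Slc25a21 was not tested. Among 13 other genes for enzymes that make or handle NADPH, the reductant that ME1 forms, 3 were higher, 3 lower and 7 did not pass. The largest rise was 1.57 for Aldh1l1, a cytosolic folate enzyme, and the largest fall 0.74 for Nnt, the transhydrogenase of the inner mitochondrial membrane. The paralogs Mdh1b and Got1l1 had at most 5 and 3 reads and were not tested.

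**Figure D5:**
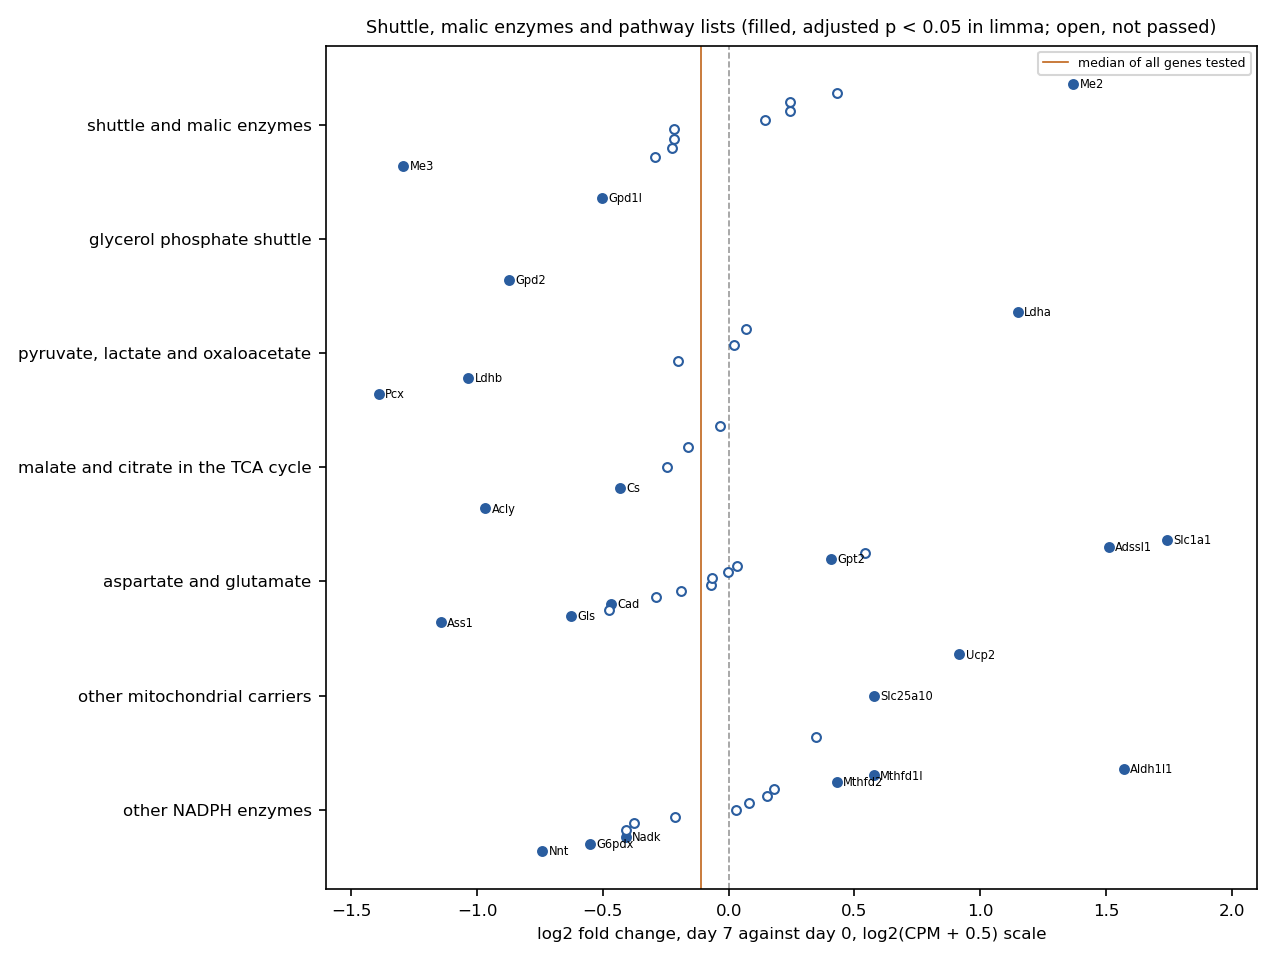
Log2 fold change of day 7 against day 0 (horizontal axis, log2(CPM + 0.5) scale) of the shuttle and malic enzyme genes and of 6 lists of related genes (rows), with 1 point per tested gene. Filled and named genes have an adjusted p below 0.05 in limma, and the solid line marks the median of all genes tested, −0.11.

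Across the 9 libraries, the genes whose log2(CPM + 0.5) followed that of Me2 most closely among the 9099 genes whose mean CPM reached 10 were Dixdc1 (Pearson r = 0.996), Kazald1 (0.992), Fam102a (0.991), Sp7 (0.991) and Kcnk6 (0.990). Sp7 encodes osterix, a transcription factor of the osteoblast lineage, and its mean RPKM was 22.6, 51.1 and 76.5 at the successive stages. These correlations are a description. The libraries fall into 3 stages, so a high r shows mainly that the stage means have the same order and similar relative spacing on the log scale. It does not show equal fold changes. Mean RPKM went from 0.922 at day 0 to 8.95 at day 7 for Kcnk6, and from 18.8 to 48.7 for Me2.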

How the data were processed

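Per the labels and the methods of the study, the authors aligned reads to the mouse genome with STAR 2.0.4b, assigned uniquely aligned reads to genes with featureCounts. The authors deposited CPM (reads scaled to a library of 1000000) and RPKM (CPM per kilobase of gene model) for every gene. The genome build was GRCm38, according to the submitters' processing notes. Whether counting used the strand is not given in the sources used here, so levels of overlapping genes are uncertain, which concerns Mdh1 with Wdpcp (133 bp, opposite strand) and Slc25a11 with Rnf167 (245 bp, opposite strand). Got2, Slc25a12, Me1 and Me3 also overlap noncoding genes or pseudogenes, by 213 to 1782 bp, which had at most 10 reads per library or were not analysed here, and Mdh1 overlaps a miRNA gene with at most 1 read. The methods allow a wider span of pup ages than the labels. Replicates are biological by the study's legends, and none was a duplicate by chi-square of counts.

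The CPM values were whole multiples of 1 read in 100% of cases (within 1% of a read for low values), which gave the reads per library, the alternative count models and the depth. PCR copies were not marked, so the recovered reads may include them. The intervals rest on the spread between libraries, which limma combines with that of other genes. The test of day 7 against day 0 used limma 3.58.1 (trend) in R 4.3.3 on log2(CPM + 0.5) of the 12712 genes whose mean CPM over 6 libraries was 1 or more. Fold changes are on this scale, which understates those of low genes. P-values were adjusted over all genes tested, at 0.05. With 42.9 prior and 4 residual degrees of freedom, a gene's own replicates had little weight in its p-value. The code was tested on simulated data. Ratios were tested by exact permutation.

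The 10 genes, the pathway and marker lists and the motifs were chosen with earlier results of these data known. The text names the 10 genes, for each pathway list its largest passing rise and fall and its untested genes, and the 5 genes most like Me2. Gpd1l, Fh1, Slc25a1, Slc25a10 and the marker genes named beside the stage were added after their values were seen. Coordinates come from GENCODE M21 and promoters from RefSeq. The alternatives were pseudocounts, filters, scalings, the RPKM table, quality weights, edgeR 4.0.16, DESeq2 1.42.0, a replicate block and leaving out each library, and, chosen after seeing the data, the longest coding transcript as the length and overlap counts after median-of-ratios scaling.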

Additional observations from a re-analysis of the deposited data

How the results depend on the processing

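No log2 fold change of the 10 genes and no isoform ratio changed sign under any alternative run. Me2 passed in all 18, with log2 fold changes from 1.23 to 1.49, and Mdh2 in none. The number of the 10 genes past the threshold was 2 with the CPM as deposited, 6 with median-of-ratios scaling, TMM scaling, edgeR and voomWithQualityWeights (TMM, voom and library weights together, called quality weights here), 5 with DESeq2, 1 with the RPKM table or a mean CPM of at least 5, and 2 to 5 when a library was left out. Passes were gained by Mdh1 (0.35 with both scalings, edgeR and DESeq2, 0.32 with quality weights), Got1 (0.26 and 0.25 with the scalings, 0.25 with edgeR), Slc25a13 (0.54 and 0.53 with the scalings, 0.56 with quality weights, 0.54 with edgeR, 0.55 with DESeq2), Me1 (0.35 with the scalings, edgeR and DESeq2, 0.42 with quality weights) and Slc25a12 (−0.20 with quality weights). Me3 did not pass with the RPKM table (−0.26, adjusted p = 0.142), where the pseudocount of 0.5 exceeds its values, and was not tested at a mean CPM of at least 5. When each library was left out in turn, Got2 ranged from −0.33 to −0.15, Slc25a11 from −0.39 to −0.10 and Slc25a12 from −0.39 to −0.22, and each passed only without day 0 replicate 3. Mdh1 ranged from 0.05 to 0.35, Got1 from 0.02 to 0.26, Me1 from 0.13 to 0.36, Slc25a13 from 0.29 to 0.54 and Mdh2 from −0.29 to −0.11, none with a pass. The number of the 10 genes without overlap between day 0 and day 7 was 4 as deposited and 8 with median-of-ratios scaling. Over all 12712 genes tested, 3971 passed, of which 40.3% were higher, against 5455 with 52.1% higher under median-of-ratios scaling. The number was 5458 with TMM scaling, 5468 with edgeR, 6120 with quality weights, 4910 with DESeq2 and 3649 with the RPKM table. At a mean CPM of at least 5 it was 3291 of 10446 genes. When a library was left out it was 2906 to 6299, the latter without day 0 replicate 3. Why that library and the scaling matter was not tested. The log2 ratios ranged from −0.64 to −0.33 (Mdh2/Mdh1), −0.43 to −0.30 (Got2/Got1), 1.03 to 1.22 (Me2/Me1) and −0.83 to −0.69 (Slc25a12/Slc25a13) without single libraries.

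The deviations of day 0 and day 7 libraries with the same replicate number had correlations of −0.02, −0.18 and −0.44 over genes. Between libraries with different numbers they ranged from −0.27 to 0.36, the highest for day 0 replicate 3 with day 7 replicate 2. Whether the number marks a pairing of the libraries was not tested. With the number as a block, 3413 genes passed, 2 of them among the 10, and the sign-flip test of the ratios gave 0.25, the smallest p that 3 pairs allow. Limits of depth concern Me3 above all, with 4 to 7 reads per library at day 7.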
